A study of Mus musculus with 4 samples.

Results

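The chemokine and cytokine genes that fibroblasts secrete were examined in H3K4me3 HiChIP of MLg cells. The 10 members were Ccl2, Ccl7, Cxcl1, Cxcl5 and Cxcl12, which encode chemokines, and Il6, Lif, Il11, Csf1 and Il33, which encode cytokines. They were chosen by name, as 10 of the 21755 protein-coding genes on chromosomes 1 to 19 and X of the annotation. HiChIP ligates DNA ends that lie close together in the nucleus and then precipitates the fragments that carry a mark, here H3K4me3, the histone mark of active promoters. Each valid pair therefore has 2 ends, and the ends near a transcription start site (TSS) give the signal there, while the pairs give its contacts. MLg is an established mouse lung fibroblast line, so a single line stands for the cell type. There was 1 library of each of 4 conditions. The Control library came from cells without TGFB1, and the TGFB1 library from cells given 5 ng/ml of human TGFB1 for the last 4 h. In the miR-9-LOF library an antagomiR at 60 nM blocked miR-9-5p, and the TGFB1+miR-9-LOF library combined both. Cells were harvested 24 h after transfection, and the protocol gives a negative control antagomiR for the cells without the miR-9 one, although the labels of the Control and TGFB1 libraries name none.

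Chemokines are small secreted proteins that draw leukocytes along a gradient by binding receptors coupled to G proteins. Il6, Lif and Il11 belong to the family of cytokines that signal through the shared receptor subunit Il6st, Csf1 keeps macrophages alive, and Il33 is an alarm signal stored in the nucleus and released by damaged cells. In stromal cells several of these genes are kept at a low level and are induced within hours by inflammatory signals acting through NF-kB, AP-1 and C/EBP factors.

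Between 10864558 valid pairs (TGFB1) and 15568047 (miR-9-LOF) were read per library, with 15359978 for Control and 14121095 for TGFB1+miR-9-LOF. The share of ends in H3K4me3-enriched regions was highest for Control (9.55%), then TGFB1 (6.88%) and miR-9-LOF (4.66%), and lowest for TGFB1+miR-9-LOF (4.02%), so the libraries differed in how far the signal stood above its surroundings. In the 4 libraries together 8491 enriched regions were found, and 8146 of the 21755 coding TSS (37.4%) had one within 2 kb. Of the marker genes, 5 of 10 fibroblast genes had such a region, against 0 of 8 leukocyte, 0 of 8 epithelial and 0 of 6 endothelial genes. The median signal over the fibroblast markers was 1.58 to 2.80 times that of the median coding promoter, and 0.510 to 0.731 times over the leukocyte markers. Each library pools a whole culture, so a mark carried by fewer cells and a weaker mark in each cell cannot be told apart. With 1 library per condition, every interval and p-value below covers the counting error of these libraries only and compares libraries, not conditions.

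The sequences below show the blocked microRNA and 5 of the members' promoters, 3 with and 2 without an enriched region within 2 kb. The mature miR-9-5p of 23 bases comes from 3 loci in the RefSeq table, and capitals mark its seed, bases 2 to 8.
miR-9-5p: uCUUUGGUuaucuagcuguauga
Promoters run from 250 bases before the start to the first 50 bases after it, in RefSeq coordinates on GRCm38.p6, and 7 of the 10 members were matched. Capitals mark motif matches on either strand. The motifs searched were NF-kB (GGNNNTTCC, in 18.5% of 32851 promoters), AP-1 (TGANTCA, 7.81%), SMAD (CAGACA, 21.0%), C/EBP (TTGCNCAA, 2.94%), the TATA box (TATAAA, 13.6%), the GC box (GGGCGG, 35.7%) and CCAAAGA, which pairs with bases 1 to 7 of miR-9-5p (5.34%). A G-quadruplex match is 4 runs of at least 3 G with loops of 1 to 7 bases, and 18.6% of promoters held one.
Cxcl12, chr6:117168285-117168584, forward strand, enriched region within 2 kb: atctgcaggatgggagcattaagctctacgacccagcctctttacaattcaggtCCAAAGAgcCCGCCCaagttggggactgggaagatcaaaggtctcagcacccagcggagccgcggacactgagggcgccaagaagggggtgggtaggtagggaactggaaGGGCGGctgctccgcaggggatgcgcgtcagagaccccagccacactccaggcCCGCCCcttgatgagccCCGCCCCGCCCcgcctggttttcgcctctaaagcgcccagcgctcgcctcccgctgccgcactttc
Csf1, chr3:107760420-107760719, reverse strand, enriched region within 2 kb: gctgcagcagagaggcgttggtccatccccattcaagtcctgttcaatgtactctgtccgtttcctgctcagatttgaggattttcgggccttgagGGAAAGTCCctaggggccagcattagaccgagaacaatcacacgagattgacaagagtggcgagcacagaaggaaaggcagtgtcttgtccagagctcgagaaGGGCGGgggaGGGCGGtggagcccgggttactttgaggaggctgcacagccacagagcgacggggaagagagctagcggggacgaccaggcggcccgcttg
Cxcl1, chr5:90890995-90891294, forward strand, enriched region within 2 kb: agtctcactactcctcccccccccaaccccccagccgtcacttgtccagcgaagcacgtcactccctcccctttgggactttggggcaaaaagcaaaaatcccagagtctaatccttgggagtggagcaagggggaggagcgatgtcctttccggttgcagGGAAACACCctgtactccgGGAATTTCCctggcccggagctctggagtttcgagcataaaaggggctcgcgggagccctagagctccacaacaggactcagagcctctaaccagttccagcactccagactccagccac
Il6, chr5:30012864-30013163, forward strand, no enriched region: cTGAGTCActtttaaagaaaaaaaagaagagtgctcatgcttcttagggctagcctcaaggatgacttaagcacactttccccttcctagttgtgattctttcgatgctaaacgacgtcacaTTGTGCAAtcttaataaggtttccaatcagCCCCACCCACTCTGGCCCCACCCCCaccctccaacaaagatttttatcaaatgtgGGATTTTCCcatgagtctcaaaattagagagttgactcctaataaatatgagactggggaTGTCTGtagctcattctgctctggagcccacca
Lif, chr11:4257318-4257617, forward strand, no enriched region: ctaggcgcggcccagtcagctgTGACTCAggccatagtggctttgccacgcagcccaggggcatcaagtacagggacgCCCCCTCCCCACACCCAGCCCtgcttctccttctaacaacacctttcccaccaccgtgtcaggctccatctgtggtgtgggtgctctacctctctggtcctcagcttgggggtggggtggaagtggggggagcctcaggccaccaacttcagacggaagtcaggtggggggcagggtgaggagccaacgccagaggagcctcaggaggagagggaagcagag
The Cxcl12 promoter had a GC content of 64.7% and an observed over expected CpG of 0.639, against 52.7% and 0.384 over all promoters. It held 5 GC boxes, some of which overlap, and the CCAAAGA match at base -196 from the start. The Csf1 promoter, with a CpG value of 0.644, held an NF-kB match at -154 and GC boxes at -51 and -41. Cxcl1 had NF-kB matches at -89 and -70, and a CpG value of 0.397. Il6 had the lowest GC content of these 5 promoters, 44.0%, with a CpG value of 0.214 and matches to AP-1 at -249, C/EBP at -128, NF-kB at -43 and SMAD at 17, besides a G-quadruplex match that begins at -98. Lif had an AP-1 match at -228 and a G-quadruplex match from -172, at 63.7% GC and a CpG value of 0.231. A match is a run of letters only, and no motif that is missing from a window says anything about a factor.

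The first question was which of these promoters carried H3K4me3 in the fibroblasts. Ends within 2 kb of the TSS were counted and divided by those at the median coding promoter of the same library, which had 103, 68, 80 and 88 ends. Values below stand in the order Control, TGFB1, TGFB1+miR-9-LOF, miR-9-LOF. Of the 10 members, 5 had an enriched region within 2 kb of the TSS (Ccl2, Cxcl1, Cxcl5, Cxcl12 and Csf1), beside 37.4% of all coding TSS. In this window 8 lay above the median coding promoter in all 4 libraries, and 7 in a window of 1 kb, where Cxcl12 and Il11 no longer did and Il6 did. These counts take no account of the intervals, and the median by its definition splits the coding promoters of each library evenly.

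Ccl2, the main attractant of monocytes (ENSMUSG00000035385.5, chr11:82035571-82037453 on GRCm38, forward strand), had 427, 184, 187 and 251 ends. This was 4.15, 2.71, 2.34 and 2.85 times the median promoter, highest in Control. Its enriched region, chr11:82036001-82037000, begins just after the TSS and also lies within 2 kb of the TSS of the overlapping Gm17268, so the signal of these genes cannot be separated here. Ccl7, a further attractant of monocytes (ENSMUSG00000035373.2, chr11:82045712-82047525, forward strand), lies next to Ccl2 and had 325, 140, 143 and 136 ends, or 3.16, 2.06, 1.79 and 1.55 times the median. It had no region of its own within 2 kb, the nearest being that of Ccl2.
Cxcl12 holds blood progenitors and lymphocytes in place through Cxcr4 (ENSMUSG00000061353.11, chr6:117168535-117181367, forward strand). It had 446, 217, 193 and 218 ends, or 4.33, 3.19, 2.41 and 2.48 times the median, and ranked between the 80.0th and 83.3rd percentile of coding promoters. Besides the region just after the TSS, chr6:117169001-117170000, a second one was centred 2.96 kb into the gene.
Cxcl1 and Cxcl5 attract neutrophils through Cxcr2. Cxcl1 (ENSMUSG00000029380.11, chr5:90891241-90893115, forward strand) had 245, 104, 111 and 118 ends, or 2.38, 1.53, 1.39 and 1.34 times the median. Cxcl5 (ENSMUSG00000029371.7, chr5:90759360-90761624, forward strand) had 309, 137, 107 and 156 ends, or 3.00, 2.01, 1.34 and 1.77 times the median. In each of these chemokine genes Control was the highest library, as it was for promoters with an enriched region as a whole, whose median stood at 3.99, 3.15, 2.20 and 2.52 times that of all coding promoters.

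Csf1, the growth factor of macrophages (ENSMUSG00000014599.10, chr3:107741048-107760469, reverse strand), was the one cytokine gene with a region within 2 kb of its TSS, chr3:107759001-107760000. It had 329, 160, 117 and 141 ends, or 3.19, 2.35, 1.46 and 1.60 times the median.
The genes of the Il6st family had no region within 2 kb. Lif (ENSMUSG00000034394.14, chr11:4257557-4272514, forward strand) had 156, 130, 138 and 132 ends, or 1.51, 1.91, 1.72 and 1.5 times the median, with a region 9.94 kb inside the gene at chr11:4267001-4268000. Il6 (ENSMUSG00000025746.11, chr5:30013114-30019981, forward strand) had 129, 65, 73 and 95 ends, or 1.25, 0.956, 0.912 and 1.08 times the median. Il11, a cytokine of fibroblast activation (ENSMUSG00000004371.15, chr7:4772373-4782859, reverse strand), had 116, 69, 101 and 119 ends, or 1.13, 1.01, 1.26 and 1.35 times the median, and its nearest region was that of the neighbouring Rpl28. Within 2 kb Lif and Il11 therefore stood above the median promoter in every library, and Il6 on either side of it. For Il11 the interval included 1 in Control (0.931 to 1.35) and in TGFB1 (0.790 to 1.28). Within 1 kb Il11 was below it in every library, at 0.491 to 0.727 times, and Il6 above it, at 1.32 to 1.89 times.
Il33 (ENSMUSG00000024810.16, chr19:29925114-29960718, forward strand) had 98, 65, 97 and 85 ends, or 0.951, 0.956, 1.21 and 0.966 times the median. Its inner start, 20676 bp into the gene, was lower still at 0.480 to 0.693 times, and the inner start of Il11, 4718 bp in, stood at 0.892 to 1.26 times.
In Control the order of the levels within 2 kb was Cxcl12, Ccl2, Csf1, Ccl7, Cxcl5, Cxcl1, Lif, Il6, Il11 and Il33. Neighbours in this order did not differ beyond their 95% intervals except at 2 steps. The lower bound of Ccl2, 3.76, lay above the upper bound of Csf1, 3.56, and that of Cxcl1, 2.09, above that of Lif, 1.77. The order depends on the window. Within 1 kb Cxcl5 was highest in Control, at 4.87 times the median, and Cxcl12, whose ends lie farther into the gene, stood at 0.945, 1.16, 0.773 and 0.729 times.

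**Figure D1:**
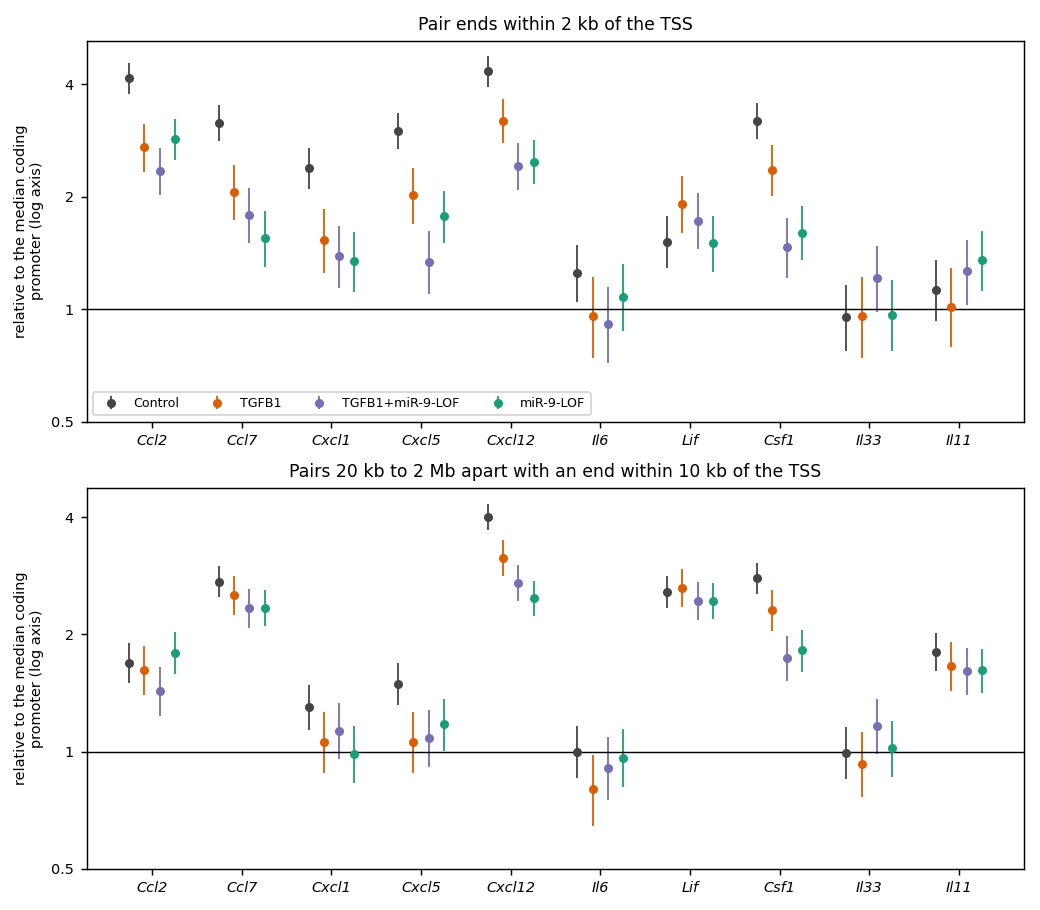
Ends within 2 kb of each member's TSS (upper panel) and pairs 20 kb to 2 Mb apart with an end within 10 kb of it (lower panel), as multiples of the median coding promoter of the same library on a log axis, with 1 point per library and bars for exact 95% Poisson intervals. For ends, the Control points of Cxcl12, Ccl2, Csf1, Ccl7, Cxcl5 and Cxcl1 lie between 2.38 and 4.33 and those of Lif, Il6, Il11 and Il33 between 0.951 and 1.51, and for contacts Cxcl12 is highest, at 4.01 in Control.

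The level of a promoter also holds the background of its surroundings. Coding promoters without a region on chromosome 11, which carries Ccl2, Ccl7 and Lif, stood at 1.72 to 1.83 times all such promoters, the highest of the chromosomes, and those on chromosome 7, which carries Il11, at 0.779 to 0.870 times. The part of this in the levels was not tested. Ends per kb within 2 kb of the TSS were therefore also divided by those 10 to 100 kb away on both sides, with enriched regions left out.
Set against its own flanks, Cxcl12 stood at 2.58 to 5.53 times, Cxcl5 at 2.01 to 5.00, Cxcl1 at 2.40 to 4.85 and Ccl2 at 1.91 to 4.00 times. Cxcl12 was the highest member in 3 libraries and Cxcl5 in miR-9-LOF, where they stood at 2.83 and 3.05 times with overlapping intervals. The median coding promoter was at 1.51 to 1.76 times its flanks and the median promoter with a region at 3.01 to 6.22 times. For these 4 genes the interval lay above the median promoter in all 4 libraries.
Csf1 was above it in 2 libraries (1.43 to 3.26 times), Ccl7 in 1 (1.45 to 3.17) and Il6 in 1 (1.56 to 2.61). Lif, Il33 and Il11 were above it in 0 of 4 libraries, at 1.27 to 1.57, 1.16 to 1.39 and 1.25 to 1.51 times their flanks. Lif therefore stood above the median promoter only before this division, and its flanks held 1.85 to 2.07 times the ends of the median coding flank.
The shape of the signal differed as well. In bins of 500 bp, the highest bin of each gene within 2 kb of the TSS was taken from the 4 libraries together. That of Cxcl5 was the first one after the TSS, with 201, 84, 64 and 104 ends, and held 63.9% of its ends within 2 kb. That of Cxcl1 was in the same place, with 140, 62, 56 and 67 ends (56.2%), and both were narrow. Csf1 peaked 500 to 1000 bp after the TSS with 197, 92, 40 and 61 ends (52.2%), and Cxcl12 at 1000 to 1500 bp with 196, 78, 63 and 74 ends (38.3%).
The highest bins of Ccl2 and Ccl7 both lay 500 to 1000 bp after the TSS, with 136, 59, 54 and 62 ends at Ccl2 and 111, 44, 44 and 36 at Ccl7. Relative to its own flanks the Ccl7 bin stood at 3.07 to 8.66 times, so Ccl7 had a local maximum although no bin of it was called an enriched region.
Il6 had a smaller maximum in the same place, 46, 19, 13 and 24 ends, or 2.23 to 7.45 times its flanks. Lif, Il33 and Il11 stood at 2.75 to 3.30, 2.19 to 4.07 and 2.03 to 3.72 times in the bin chosen so. In single libraries the highest bin of Ccl2, Il6, Lif and Il33 could lie elsewhere, as for Lif in Control, where it lay 1500 to 2000 bp after the TSS with 51 ends, or 3.69 times the flanks. Ends lie near the sites of the restriction enzyme, so a single bin also follows where those sites are, and the part of this was not tested.

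**Figure D2:**
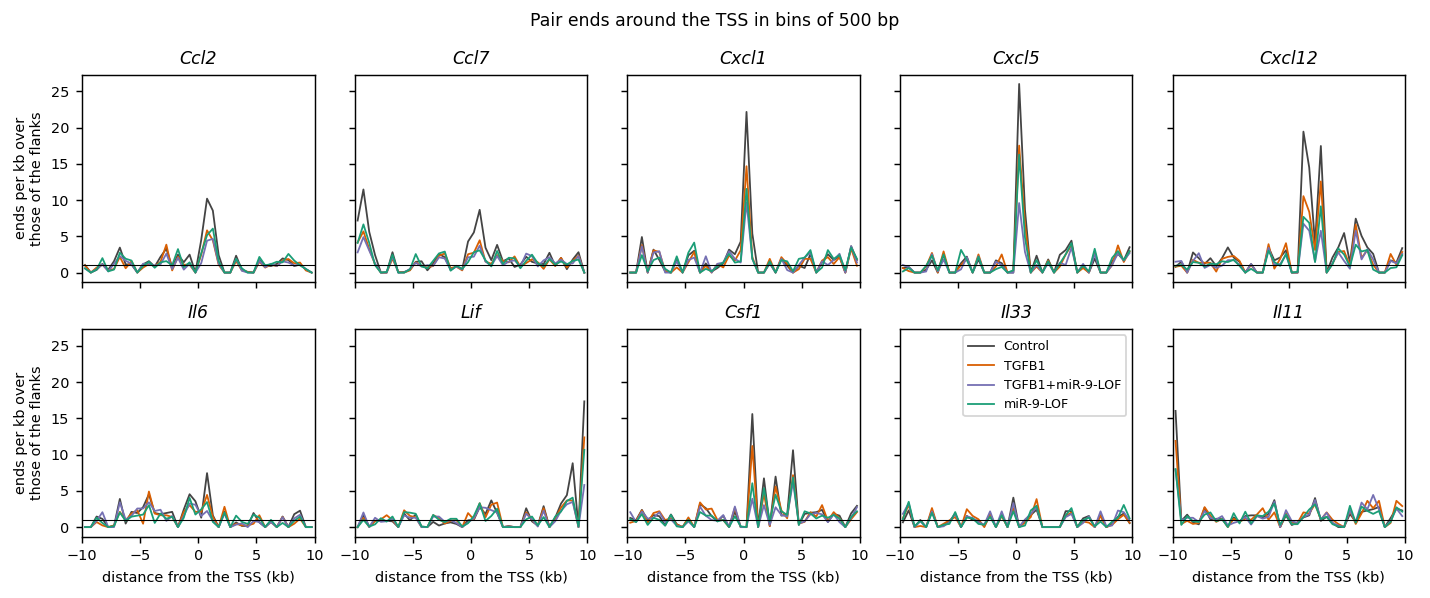
Pair ends in 500-bp bins within 10 kb of each member's TSS, as ends per kb divided by those of the gene's own flanks, with 1 line per library, transcription running to the right and a thin line at 1. Cxcl5 and Cxcl1 peak in the first bin after the TSS, at 26.0 and 22.2 times the flanks in Control, and the highest bins of Lif, Il33 and Il11 within 2 kb reach at most 4.07 times, while peaks at the edges of the Ccl7, Lif and Il11 panels are the regions named in the text.

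The second question was how many contacts the promoters made. Pairs 20 kb to 2 Mb apart with an end within 10 kb of the TSS were counted. The median coding promoter had 171, 115, 130 and 143 of them.
Cxcl12 had 686, 362, 352 and 354 contacts, or 4.01, 3.15, 2.71 and 2.48 times the median, between the 95.5th and the 98.1st percentile. Csf1 had 477, 265, 226 and 260 contacts (2.79, 2.30, 1.74 and 1.82 times), and both genes were highest in Control. Lif had 440, 303, 317 and 348 contacts, or 2.57, 2.63, 2.44 and 2.43 times the median, nearly the same in the 4 libraries. This depends on the window, since within 5 kb of the TSS Lif stood at 1.43, 2.08, 2.17 and 1.75 times, lowest in Control.
Ccl7 had more contacts than Ccl2, 467, 290, 303 and 335 against 289, 186, 186 and 256, although fewer ends at its TSS. That is 2.73, 2.52, 2.33 and 2.34 times the median for Ccl7 and 1.69, 1.62, 1.43 and 1.79 times for Ccl2. The 20-kb windows of the pair overlap, and 562 pairs were counted for both, which is 61.3% of those of Ccl2 and 40.3% of those of Ccl7.
Il11 had 309, 191, 209 and 231 contacts (1.81, 1.66, 1.61 and 1.62 times). The remaining 4 genes were nearer to the median promoter in this window. Cxcl5 stood at 1.49, 1.06, 1.08 and 1.17 times, Cxcl1 at 1.30, 1.06, 1.13 and 0.986 times, Il6 at 1.00, 0.800, 0.908 and 0.965 times and Il33 at 0.994, 0.930, 1.16 and 1.02 times. Within 5 kb Il11 lay below Cxcl5, at 1.26, 1.20, 1.11 and 1.24 times against 2.09, 1.30, 1.31 and 1.36.
The contacts were unevenly split between the sides of the gene. Of the Il6 contacts 75.1% (Wilson 95% interval 71.3 to 78.7) went upstream, of those of Cxcl1 72.8% (69.2 to 76.1) and of Cxcl12 27.0% (25 to 29.2). The median coding promoter was 7.09 points from an even split. Only 2.88% of 20513 coding promoters with enough contacts were as one-sided as Il6, 4.33% as Cxcl12 and 4.46% as Cxcl1. Csf1 sent 69.9% upstream and Lif and Il11 30.2% and 31.9%, while Ccl2, Ccl7, Cxcl5 and Il33 were between 47.0% and 54.5%.
The share of contacts that ended in an enriched region differed between the members. Over the 4 libraries it was 0.860% for Ccl7, 1.09% for Ccl2, 1.65% for Cxcl12 and 2.31% for Il6. It was 4.23% for Cxcl5, 4.43% for Cxcl1, 6.60% for Csf1, 7.10% for Lif, 8.54% for Il33 and 12.2% for Il11. The median coding promoter had 9.13%, 7.19%, 4.55% and 5.15% in the 4 libraries. Compared within each library, Il11 lay at the 65.8th to 84.7th percentile of coding promoters and Il33 at the 40.9th to 76.7th. Lif lay at the 40.0th to 63.5th and Csf1 at the 32.1st to 63.0th. None of the other members lay above the 43.8th, reached by Cxcl1. The distance of the contacts was short for Csf1, with a median of 70.5 to 83.7 kb, and long for Cxcl12, with 277 to 333 kb, against 156 kb for the median coding promoter in Control.

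Next, the places these promoters touched were looked for. Around each TSS, pairs between the 20-kb window and bins of 10 kb were set against the number that distance and coverage predict, with the 4 libraries pooled because each is too thin alone. A bin was called at a one-sided Poisson adjusted p of at most 0.05, at least 2-fold and at least 5 pairs. Of the 10 members, 7 had at least 1 such bin, 42 bins in all, beside 50% of all coding promoters. None of the 42 bins held an enriched region, or a coding TSS taken as the outermost start of each gene record, while 12.5% and 18.5% of all called bins did and 5.54% and 13.9% of all bins tested. By the start of the longest coding transcript 1 of the 42 held a TSS, that of Ccl1 in a bin of Ccl7. These results depend on the expected number and the bin size. With an expected number from distance alone, scaled to each promoter's own total, all 10 members had called bins, beside 76.9% of all coding promoters. Some of these held a region and a coding TSS, as for Il33 (4.09-fold) and Il11 (2.86-fold). In bins of 25 kb a bin of Il6 held both (3.01-fold).
Cxcl12 had 16 called bins, at the 99.4th percentile of coding promoters, and all lay downstream, 205 to 665 kb from the TSS. The bin farthest above its expected number, chr6:117818000-117827999, held 44 pairs, which were 15, 12, 9 and 8 in the libraries. The expected number was 5.83, a ratio of 7.55 (5.49 to 10.1, exact Poisson, adjusted p = 2.80e-19). A nearer bin, chr6:117498000-117507999, held 59 pairs against 14.7, a ratio of 4.03, and overlaps the long noncoding RNA gene 6820426E19Rik. Its pairs were 26, 14, 15 and 4, so that miR-9-LOF gave the fewest. Over the called bins together Cxcl12 had 27.6, 22.3, 16.5 and 11.1 contacts per 1000000 pairs, highest in Control. The bins were chosen on the pooled pairs, and Control gave 185 of these 463. All contacts of Cxcl12 ran in the same order, at 103, 75.5, 59.1 and 53.7 per 1000000 pairs. Whether the called bins differed beyond this was not tested.
Il6 had 10 called bins, all upstream at 114 to 424 kb, and 8 of them formed an unbroken stretch, chr5:29824000-29903999. The one with the most pairs, chr5:29884000-29893999, held 25 (7, 4, 5 and 9) against 6.03, a ratio of 4.15 (2.68 to 6.12), within a range of 2.89 to 6.06 over the 10 bins. This bin overlaps the noncoding gene Gm42450, and others overlap the bodies of Dnajb6 and Ube3c. Over the called bins Il6 had 6.28, 5.42, 5.38 and 7.43 contacts per 1000000 pairs. These come from 42, 26, 32 and 49 pairs, and their difference between libraries was not tested.
Cxcl5 had 6 called bins and Cxcl1 had 4, and 2 bins of each overlapped. For Cxcl5 the bin chr5:90680000-90689999 held 37 pairs against 11, a ratio of 3.36. For Cxcl1, chr5:90652000-90661999 held 24 pairs (5, 6, 12 and 1) against 5.16, a ratio of 4.65 (2.98 to 6.92). Both of these bins lie on the side of Cxcl5 away from the rest of the cluster. Another called bin of Cxcl5, chr5:90829000-90838999, lies inside the cluster and held 28 pairs, a ratio of 2.30.
Ccl7 had 2 called bins, chr11:82165000-82174999 with 64 pairs (17, 15, 18 and 14) against 25.7 and chr11:82175000-82184999 with 74 pairs (20, 16, 16 and 22) against 30.5. The ratios were 2.49 and 2.43, and the second bin holds the start of the longest coding transcript of Ccl1, the last gene of the cluster. Ccl2 had none, and its bin just outside the limits was the first of these, with 39 pairs against 20.2, a ratio of 1.93 and an adjusted p of 0.0313.
Lif had 2 adjoining bins inside Hormad2, of which chr11:4417000-4426999 held 58 pairs (14, 15, 11 and 18), 2.89-fold the expected number. Csf1 had 2 in Gm36211, and chr3:107820000-107829999 held 82 pairs (29, 21, 10 and 22), 2.14-fold. Il33 and Il11 had 0. The pairs of each gene as a whole were 0.604 times the expected number for Ccl2, 0.617 for Lif, 0.657 for Ccl7 and 0.726 for Csf1, and 1.03 at the median coding promoter. An alternative chosen after seeing the data scaled the expected number to each promoter's own total. With it 8 members had 51 called bins, Ccl2 then having 4, and 53.1% of coding promoters had at least 1.

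**Figure D3:**
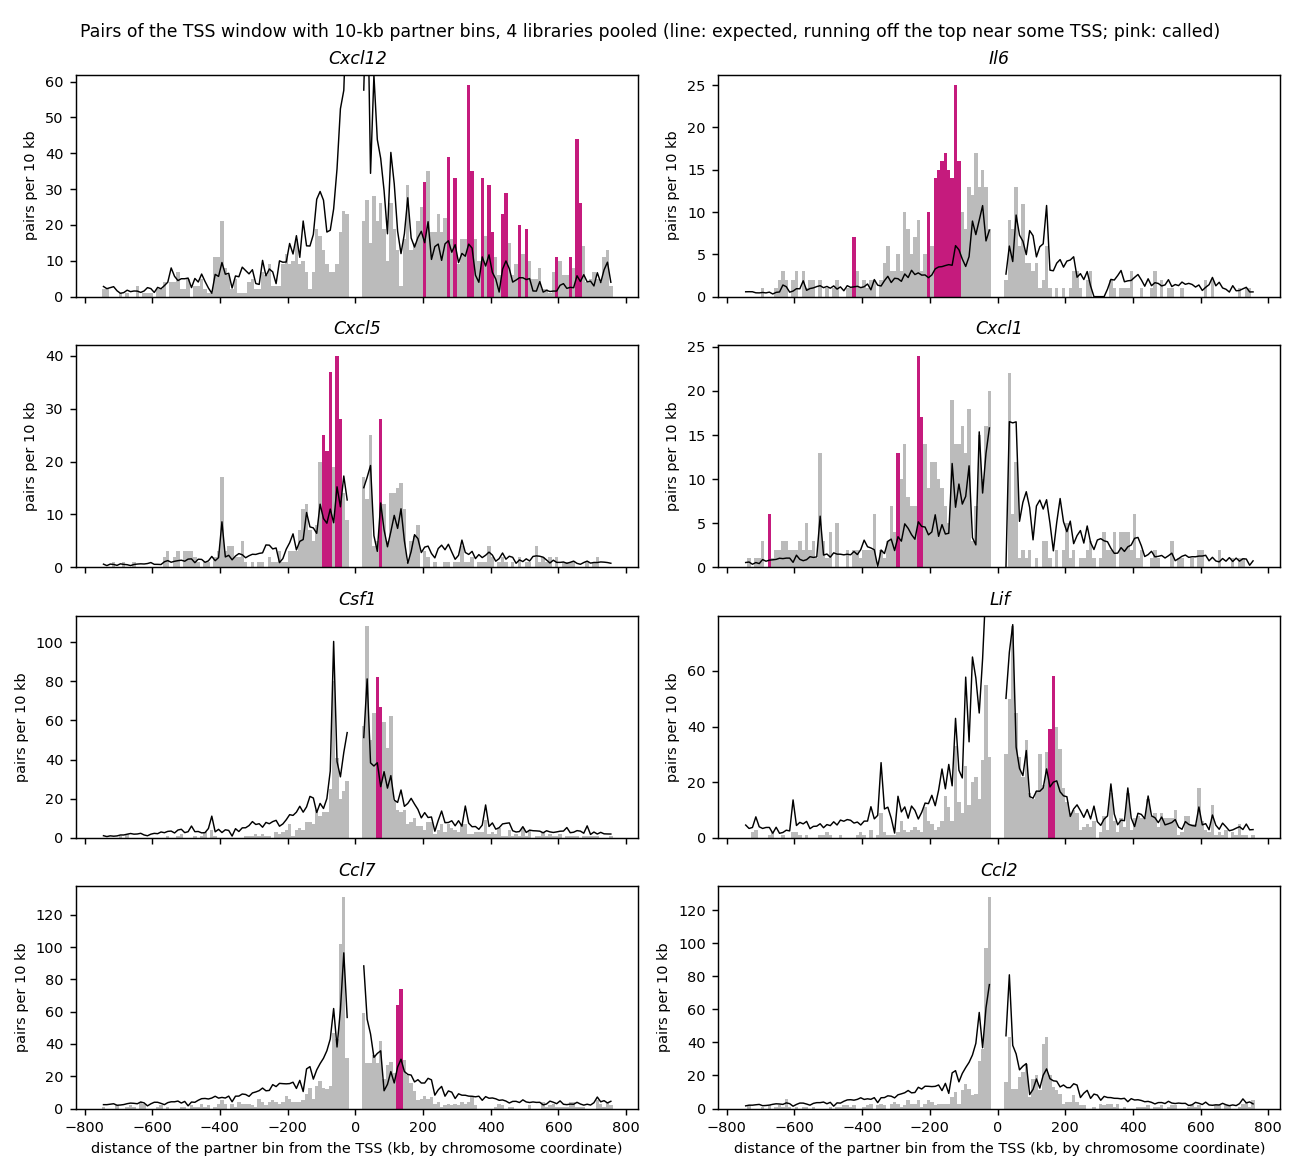
Pairs of the 20-kb TSS window with 10-kb bins by distance from the TSS along the chromosome, 4 libraries pooled, for 8 members, with bars for observed pairs, pink for called bins and a line for the number that distance and coverage predict. The 16 called bins of Cxcl12 lie to the right, which is downstream, the 10 of Il6 to the left, which is upstream, and near the TSS of Cxcl12 and Lif the line lies above the bars.

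Ccl2 and Ccl7 open a cluster of chemokine genes on chromosome 11 that goes on with Ccl11, Ccl12, Ccl8 and Ccl1. The TSS of Ccl2 and Ccl7 are 10141 bp apart, and 23 pairs joined the windows of 2 kb around them, 12, 3, 5 and 3 by library. Distance and coverage predicted 47.5, so the pair was at 0.484 times that number (0.307 to 0.726). When distance alone set the expected number, 4.05 pairs, the ratio was 5.69, so its direction rests on the correction for coverage. Between libraries the ratio of miR-9-LOF to Control was -1.98 on the log2 scale (exact binomial, unadjusted p = 0.0352), from 3 and 12 pairs. It is relative to the library totals of pairs 20 kb to 2 Mb apart and takes no account of the signal at either TSS. Ends within 2 kb were fewer in miR-9-LOF as well, 251 against 427 at Ccl2 and 136 against 325 at Ccl7. The part of this in the ratio was not tested.
The far end of the cluster gave more contacts than predicted. Ccl7 and Ccl1 were joined by 10 pairs against 2.92, a ratio of 3.42 (1.64 to 6.29), and Ccl11 and Ccl1 by 5 against 1.22, a ratio of 4.10 (1.33 to 9.56). Ccl2 and Ccl1 had 6 pairs against 2.98, with an interval that includes 1 (0.739 to 4.38), and Ccl7 and Ccl11 had fewer than predicted, 6 against 14.1 (0.425, 0.156 to 0.926). Ccl11 attracts eosinophils, and Ccl1, a ligand of Ccr8, attracts T cells and monocytes.
Inside the whole cluster, chr11:82025571-82189812, 1318 pairs at least 20 kb apart were counted against 1319 predicted, a ratio of 0.999. The median window of the same length in the genome had a ratio of 1.39, and the cluster lay at the 24.1st percentile, although its number of pairs was at the 97.5th. With distance alone the ratio was 2.69.

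Cxcl1 and Cxcl5 stand 131863 bp apart in the chemokine cluster on chromosome 5, with Ppbp, Pf4, Cxcl3, Cxcl15 and Cxcl2. Within 5 kb of their TSS they shared 11 pairs, 5, 4, 0 and 2 by library, with the 0 in TGFB1+miR-9-LOF. The predicted number was 7.18, a ratio of 1.53 whose interval includes 1 (0.765 to 2.74). The count of 0 allows up to 0.504 pairs for every 1000000 pairs counted at 20 kb to 2 Mb, and against 4 in TGFB1 the exact binomial p was 0.0396, unadjusted. The 95% interval of that log2 ratio reached up to 0.29 and so included 0. Against 2 in miR-9-LOF the exact binomial p was 0.501, unadjusted. In wider windows of 10 kb it was 32 pairs, 16, 9, 3 and 4 by library, against 17.8, a ratio of 1.80 (1.23 to 2.54).
Cxcl1 had more pairs than predicted with 2 further genes of the cluster, 10 against 3.74 with Cxcl3 (2.67, 1.28 to 4.91) and 10 against 4.31 with Cxcl15 (2.32, 1.11 to 4.26). With its neighbour Cxcl2 it had 20 against 22.4, a ratio of 0.894. Pf4, a platelet chemokine, and Cxcl2, a neutrophil attractant, were joined by 7 pairs against 2.57 (2.73, 1.10 to 5.62), and Cxcl5 with Pf4 by 52 against 42 (1.24). These ratios are descriptions of single pairs of genes, chosen from all pairs in the clusters, and no p was computed for them. The lower bounds for Cxcl1 with Cxcl3 and Cxcl15 and for Pf4 with Cxcl2 lie below 1.39, the ratio inside the whole cluster.
Inside the cluster, chr5:90749378-90913873, 603 pairs were counted against 435, a ratio of 1.39 at the 49.7th percentile of windows of the same length. Between libraries it held 143 pairs in miR-9-LOF against 203 in Control. Relative to the library totals of pairs 20 kb to 2 Mb apart, the log2 ratio was -0.48 (-0.80 to -0.17, exact binomial test, adjusted p = 0.0181), beside 18.1% of all such windows called. The window median was 0.11, and the cluster lay at the 7.20th percentile. Distance and coverage predicted 97.9 pairs in miR-9-LOF and 149 in Control, ratios of 1.46 (1.23 to 1.72) and 1.36 (1.18 to 1.56). Relative to the predicted number miR-9-LOF was therefore not lower. In the other contrasts neither cluster was called, beside 1.4% of windows for TGFB1 over Control. For TGFB1+miR-9-LOF the shares were 1.46% over TGFB1 alone and 0.0704% over miR-9-LOF alone. The Ccl cluster was not called for miR-9-LOF over Control either, at -0.11 (-0.33 to 0.10).

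**Figure D4:**
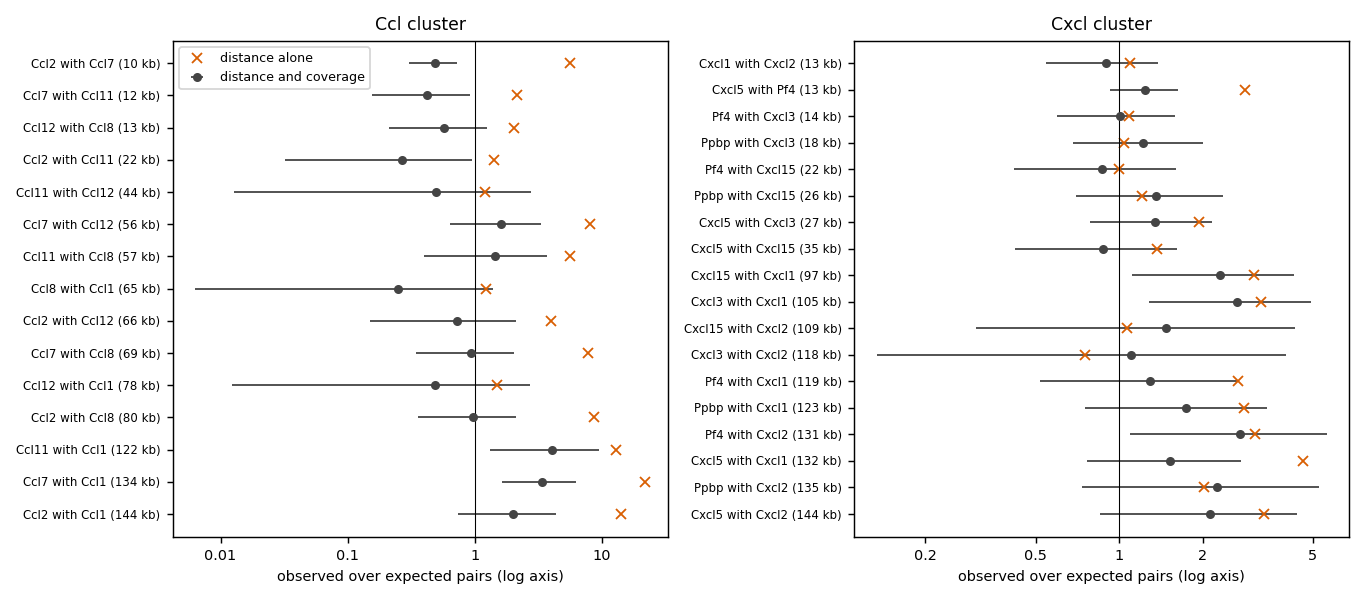
Observed over expected pairs between the TSS of pairs of genes in the Ccl and the Cxcl cluster, 4 libraries pooled, on log axes that differ between the panels, ordered by distance. Dots with exact 95% Poisson intervals use the number expected from distance and coverage and crosses that from distance alone, and Ccl2 with Ccl7 stands at 0.484 by the first and 5.69 by the second.

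Finally the libraries were compared at each member. Because the libraries differ in enrichment, each log2 ratio is given relative to the median ratio of the 500 coding promoters nearest in pooled level. The tests are two-sided exact binomial, adjusted by Benjamini-Hochberg over all coding promoters with at least 20 counts. The contrasts share libraries, so their values are not independent of each other.
For TGFB1 over Control the ends of 1 member were called, beside 1.15% of coding promoters. Lif had 130 ends in TGFB1 and 156 in the deeper Control, a log2 ratio of 0.60 (0.25 to 0.95, exact binomial, adjusted p = 0.0495). The other 9 members had negative ratios, down to -0.44 for Il6 (-0.90 to -0.0015), and the median of the 10 was -0.20 against 0 over all. The call of Lif was lost in 5 of 9 alternatives, among them reads of mapping quality of at least 30, a window of 1 kb and a reference of promoters of the same kind (0.44, exact adjusted p = 0.218), although the ratio was positive in each of the 9.
For miR-9-LOF over Control the ends of 2 members were called, beside 9.29% of coding promoters. Ccl7 had 136 ends against 325, a log2 ratio of -0.46 (-0.76 to -0.17, exact binomial adjusted p = 0.0231), and Csf1 had 141 against 329, a log2 ratio of -0.42 (-0.72 to -0.13, adjusted p = 0.0411). Of 9 alternatives Csf1 lost its call in 3, a window of 5 kb, promoters of the same kind and each fragment pair counted once, and Ccl7 lost its call in 2, a window of 1 kb and each fragment pair counted once. In a window of 5 kb the ratio of Ccl7 was 0.10, the opposite direction. Ratios of the 10 members ran from that of Ccl7 to 0.42 for Lif, with a median of -0.18.
No member was called for TGFB1+miR-9-LOF over TGFB1, where 0.637% of promoters were, nor over miR-9-LOF, where 0.551% were. The ratios ran from -0.26 for Csf1 to 0.39 for Il11 in the first and from -0.28 for Il6 to 0.37 for Ccl7 in the second. Medians of the members were 0.19 and 0.10.
In contacts, Lif was the 1 member called for miR-9-LOF over Control, beside 10% of promoters. It had 348 contacts against 440, which is 0.31 above promoters of its level (0.10 to 0.52, exact binomial adjusted p = 0.0366). The ratio to the library totals was -0.32, so the direction depends on the reference, and against promoters of the same kind the call was lost (0.27, exact adjusted p = 0.119). Members ran from -0.34 for Cxcl1 to this value, with a median of -0.03.
No contacts of members were called for TGFB1 over Control (0.69% of promoters), nor for TGFB1+miR-9-LOF over TGFB1 alone (0.22%) or miR-9-LOF alone (0.119%). The members lay between -0.43 for Cxcl5 and 0.24 for Lif, between -0.15 for Csf1 and 0.33 for Il33, and between -0.28 for Ccl2 and 0.26 for Cxcl12, with medians of -0.08, 0.11 and 0.07.
Whether the TGFB1 ratio differed with and without the miR-9 antagomiR was tested directly, by a Wald test on the 4 counts. No member was called, beside 0.192% of promoters for ends and 0.0% for contacts. The 95% interval excluded 0 for the ends of Ccl7, with a difference of 0.69 (0.24 to 1.13), the ends of Cxcl1, 0.56 (0.07 to 1.06), and the contacts of Cxcl12, 0.36 (0.07 to 0.64), and these 3 did not pass the adjustment over all promoters. A call that was missed at these depths does not show that the libraries were alike.

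**Figure D5:**
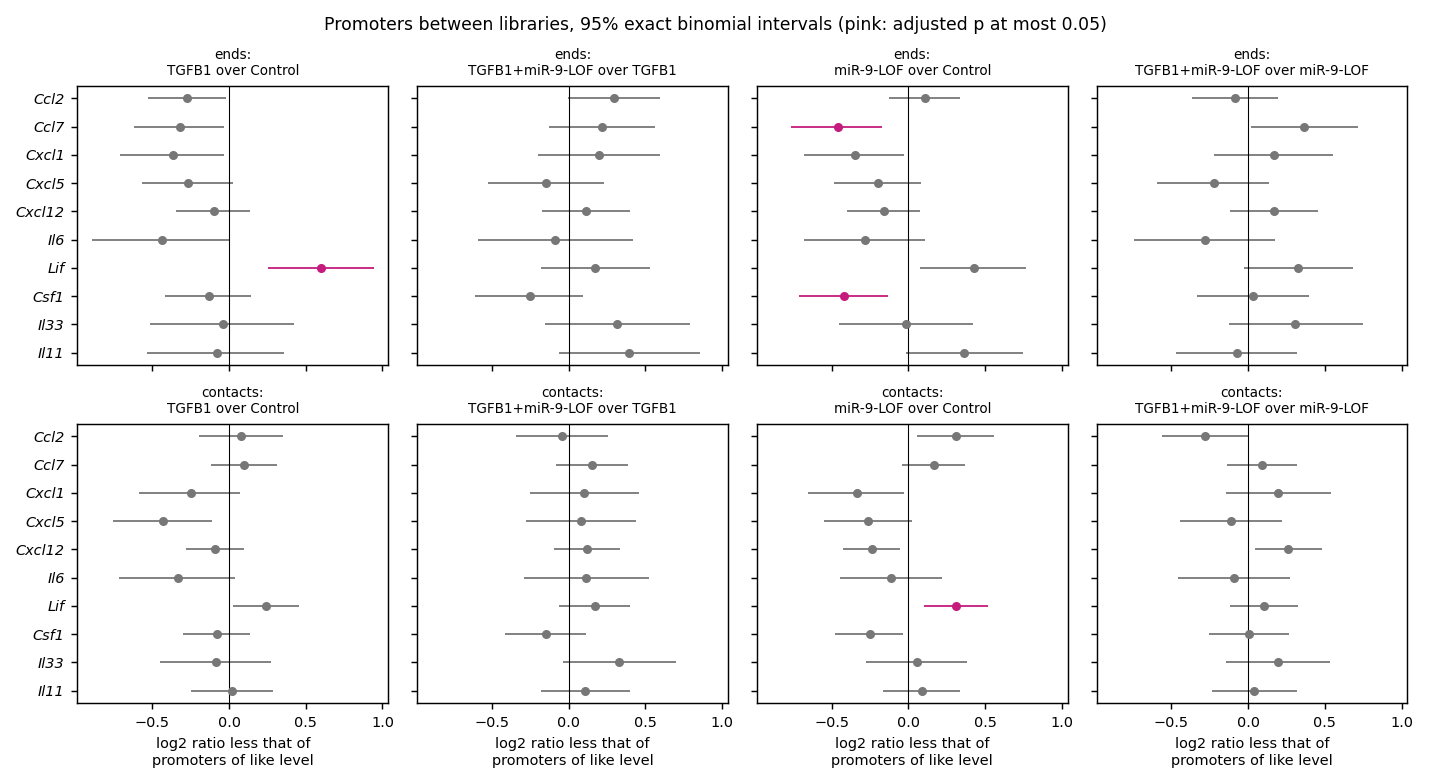
Log2 ratios of ends (upper row) and of contacts (lower row) of each member in the 4 contrasts of libraries, less that of the 500 coding promoters nearest in level, with exact 95% binomial intervals and called values in pink. In the ends Lif (0.60, TGFB1 over Control), Ccl7 (-0.46) and Csf1 (-0.42, both miR-9-LOF over Control) are called, and in the contacts Lif (0.31, miR-9-LOF over Control).

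Other genes of the same signalling were read from 4 lists, and higher and lower are again relative to promoters of like level. Of all coding promoters 9.29% were called in the ends of miR-9-LOF over Control, 863 higher and 1058 lower. In these ends, 2 of 16 further chemokine genes were called higher in miR-9-LOF than in Control, Cxcl14 (0.88) and Cxcl16 (0.58, but -0.27 against the library total), and 0 lower. Of 24 further cytokine genes 5 were higher there and 0 lower, among them Tnf (0.88), Osm (0.81) and Il10 (0.67). Against the library total these named genes stood at 0.16, 0.14 and 0.02, and not all of the 5 were positive. Tnf was also higher in TGFB1 than in Control (0.67, and 0.29 against the library total), where 1.15% of promoters were called. Tnf, Osm and Il10 are known mostly from leukocytes, whose markers had no enriched region here.
Of 18 receptor genes 2 were higher and 2 lower in miR-9-LOF than in Control. Ackr3 (0.61) and Cxcr4 (0.48), both receptors of Cxcl12, had the higher values, which were -0.21 and -0.20 against the library total. Tgfbr1 (-0.95), a receptor of TGFB1, and Il6st (-0.28) had the lower ones, and that of Tgfbr1 was 0.02 against promoters with an enriched region. Ackr3 was also higher in TGFB1+miR-9-LOF than in TGFB1, in ends (0.64, beside 0.637% of promoters called) and in contacts (0.59, beside 0.22%). In contacts of miR-9-LOF over Control, where 10% of promoters were called, 3 receptors were higher, Cxcr4 (0.52), Il1r1 (0.40) and Ackr3 (0.38), of which the last 2 were -0.02 and -0.18 against the library total, and 2 lower, Il6st (-0.40) and Il1rap (-0.59), the shared subunit of the receptors of Il33 and its relatives.
Of 20 genes of the NF-kB, STAT3 and C/EBP factors and their inhibitors, 18 had an enriched region within 2 kb of the TSS, against 1 of 16 further chemokines. In ends of miR-9-LOF over Control 0 were higher and 2 lower, Nfkbiz (-0.74, but 0.10 against promoters with an enriched region) and Socs1 (-0.45), an inhibitor of cytokine signalling, and in contacts 0 were called. In the contacts of further cytokines Il10 (0.65) and Osm (0.47, but -0.05 against the library total) were higher in miR-9-LOF than in Control. In TGFB1+miR-9-LOF over miR-9-LOF no gene of the lists was called, and over the 8 sets of values each list's medians lay between -0.17 and 0.19 against 0 over all promoters.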

How the data were processed

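Valid pairs of 4 H3K4me3 HiChIP libraries, 1 per condition, were used as deposited. The authors aligned reads to mm10 with HiC-Pro, removed duplicates and assigned ends to MboI fragments, according to the methods and the submitters' processing notes. Each deposited line gives the positions and strands of both ends and the aligner's mapping quality score, and an alternative kept only pairs with a score of at least 30. Counting and tests used pandas 2.3.3, scipy 1.17.1 and numpy 2.4.6 under Python 3.11.15, and figures were drawn with matplotlib 3.10.9. TSS were taken from the GENCODE annotation of GRCm38, and inside the clusters from the longest coding transcript.

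Enriched regions were bins of 1 kb at least 4-fold above their surroundings at an FDR of 0.01. The expected number of pairs was the product of the coverages of 1-kb bins and a factor for distance. This factor was smoothed over 10 kb on either side from 20 kb outwards and left unsmoothed at shorter distances, as between Ccl2 and Ccl7. Intervals and tests cover counting error only, and reads carried no molecular identifiers. The tests were tried on simulated data with known changes. Of 200 planted 1.5-fold changes in TGFB1 over Control, 27.0% were recovered in ends and 29.5% in contacts. Of 200 planted 4-fold partner bins 62.0% were recovered. The genes named are all 10 members, the other genes of the 2 clusters, coding genes with a TSS in a called bin (none by the outermost start of the gene record, Ccl1 by its longest coding transcript) and at most 5 called genes of each of the 4 lists, except that Il1r1 is named as a further receptor. Noncoding and coding genes that a named bin overlaps, and the genes whose regions lie at Ccl2 and near Il11, were named after their values were seen. Members and lists were chosen with earlier results of these data known. The values of 1 gene of the cytokine list are not reported here.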

Additional observations from a re-analysis of the deposited data

How the results depend on the processing

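No paired analysis was possible because each condition has 1 library and the labels carry no replicate numbers. For the same reason leaving out a library leaves no contrast. The reference decides most of the calls, since the libraries differ in enrichment. Against the 500 promoters nearest in level, 25 to 2103 coding promoters were called in the 8 sets of tests and 43.0 to 68.5% of the calls were higher. Against the median of all coding promoters it was 40 to 10613 calls and 17.7 to 45.0%, against promoters with an enriched region 45 to 11083 and 64.4 to 93.9%, and against the library total 65 to 10410 and 2.38 to 11.3%. Against the nearest promoters of the same kind, chosen after seeing the data, it was 1 to 1394 calls.

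Where a member was called, the share of all coding promoters called in the same setting follows in brackets. In the ends of TGFB1 over Control, 1 member was called (1.15%). It was 0 with windows of 1 kb, promoters of the same kind, mapping quality of at least 30 or each fragment pair once. With windows of 5 kb it was 2 (4.33%), against all coding promoters 5 (11.4%) and against the total 6 (36.4%). In the ends of TGFB1+miR-9-LOF over TGFB1 it was 0. Against all coding promoters it was 1 (24.5%), against promoters with a region 2 (27.0%) and against the total 4 (40.5%). In the ends of miR-9-LOF over Control it was 2 (9.29%). With windows of 1 kb (5.88%) or the same kind (6.74%) it was 1, and 0 with each fragment pair once. Against all coding promoters (51.3%) or the total (50.4%) it was 7, and 6 against promoters with a region (53.6%). In the contacts of TGFB1 over Control it was 0. With windows of 5 kb (0.278%) or 25 kb (3.81%) or against all coding promoters (5.0%) it was 1, and 3 against the total (18.2%). In those of TGFB1+miR-9-LOF over TGFB1 it was 0, and 1 against promoters with a region (9.85%) and 2 against the total (20.1%). In those of miR-9-LOF over Control it was 1, and 0 with the same kind, pairs up to 500 kb or mapping quality of at least 30, 2 with windows of 25 kb, 4 against all coding promoters or those with a region and 7 against the total. The direction was reversed for the ends of Ccl7 in miR-9-LOF over Control with windows of 5 kb (0.10), and for the contacts of Lif in the same contrast against all coding promoters (-0.076) and the total (-0.32).

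Of the 10 members 8 had ends above the median promoter in all libraries, and 5 when ends were divided by those of the own flanks, counted without regard to intervals, 4 of the 8 and Il6. For partner bins, the expected number from distance alone was also scaled to each promoter's own total, and 80 bins of members were called in place of 42. Over all coding promoters it was 73989 bins in place of 35235. With distance alone, Ccl2 with Ccl7 turned from 0.484 to 5.69, the inside of the Ccl cluster moved from 0.999 to 2.69, and Cxcl1 with Cxcl5 stood at 4.6. In wider windows the last was 1.80. Beyond the references, whose effect follows from their construction, the cause of these differences was not tested. Depth limits the contacts between single genes, with 0 to 12 pairs per library for Ccl2 with Ccl7 and Cxcl1 with Cxcl5.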
